A study of Rattus norvegicus with 4 samples.

Results

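Oxidative phosphorylation is the last stage of aerobic ATP production. Complexes I and II take electrons from NADH and succinate, coenzyme Q and cytochrome c carry them through complexes III and IV to oxygen, and complex V, the ATP synthase, uses the resulting proton gradient to make ATP. Most subunits are encoded in the nucleus and a few in mitochondrial DNA, which were not analysed here. Articular cartilage has no blood vessels, oxygen falls from the joint surface towards the deeper layers, and chondrocytes are known for relying largely on glycolysis, so the zones of this tissue are a natural place to compare these genes. The genes described here are the nuclear subunit genes, taken by symbol: rows named Nduf followed by a, b, c, s or v and a digit (complex I), Sdha to Sdhd (II), Uqcr (III), Cox4 to Cox8 (IV) and Atp5 (V). Of 31007 rows of the table, 90 matched and 72 of these were not 0 in all 4 libraries. These 72 were the members, and all 72 reached the minimum level and were tested. A few are not subunits: Cox4nb is named for its position next to Cox4i1, Atp5sl is an assembly factor, and Atp5s is annotated as factor B.

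The samples were articular cartilage of the proximal tibia of 2 Sprague-Dawley rats aged 10 weeks. The surface layer, called the superficial zone (SFZ), and the layers under it (deep AC) were cut separately from frozen sections by laser microdissection. Their RNA was amplified linearly before sequencing, and each rat gave 1 library of each zone. No treatment or altered allele is given in the labels. In such bulk tissue, fewer cells of a type and less RNA per cell cannot be told apart. The deposited value of a gene in a library is a log2 scaled read count less the median of that gene over the 4 libraries, with everything under 1 scaled read set to 1, the floor. A value therefore says how a library stands relative to the others for the same gene, not how abundant the gene is. Differences are SFZ minus deep AC within a rat on this log2 scale, except where a library is left out, and a value of 1 is a 2-fold difference, and ± is the SD over 2 rats. Coordinates are of rn4 unless another build is named.

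Nuclear oxidative phosphorylation genes stood close together in the 2 zones. Of the 72 members, 56 (77.8%) were under 2-fold apart in both rats, against 33.7% of the 8799 rows tested. The share rose with level, to 43.0% of the 6527 rows averaging 100 scaled reads or more and 53.2% of the 2985 rows averaging 1000 or more. None of these sets was matched to the levels of the members. The median member differed by 0.03 in rat 1 and -0.25 in rat 2, while the median row of the table differed by -0.13 and 0.00. The median range over the 4 libraries was 0.80 for the members, 1.87 for all rows and 1.19 for the rows averaging 1000 scaled reads or more. By limma with the rat as a block, 0 members passed as higher and 0 as lower at a Benjamini-Hochberg adjusted p of 0.05, as did 0.0% and 0.0% of all rows. At an unadjusted p under 0.05 the count was 0 higher and 1 lower, Cox4i2, against 3.94% and 6.06% of all rows. The SE of a member's difference ran from 0.35 to 2.91 with a median of 0.44. With 2 pairs an exact sign permutation test of a single gene cannot go below p = 0.5. Only the 2 rats themselves show whether a difference repeats.

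**Figure D1:**
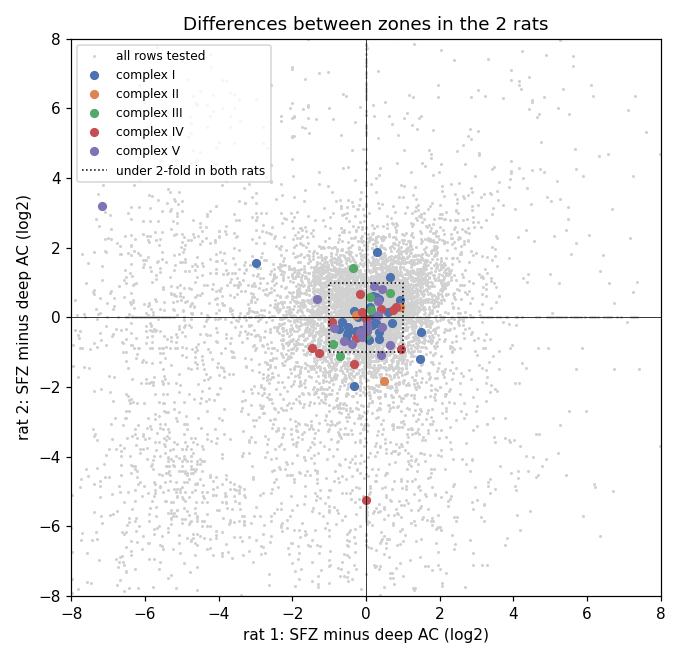
Within-rat difference between zones (SFZ minus deep AC, log2) in rat 1 on the x axis and in rat 2 on the y axis, with members coloured by complex over all rows tested in grey. The axes end at 8 in each direction, and 125 rows beyond them are not drawn. Of the 72 members, 56 lie in the dotted square of under 2-fold in both rats, and Atp5s, Cox6b2 and Ndufa12 lie farthest from it.

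Members went in both directions within each of complexes I, III, IV and V. In both rats 20 members (27.8%) were higher and 22 (30.6%) lower, against 25.1% and 28.9% of all rows tested, so these shares were near the background. Both SFZ libraries lay above both deep AC libraries for 16 members (22.2%) and below them for 21 (29.2%), where the background was 19.5% and 22.9%. No member was at least 2-fold higher in both rats (background 6.41%), and Cox8c was the only member at least 2-fold lower in both (background 11.9%). Atp5s, Ndufa12 and Ndufs7 passed 2-fold in both rats but with opposite signs, 4.17% of members and 11.2% of all rows. Across the 72 members the differences in the 2 rats had a Pearson's r of -0.31 and a Spearman's rho of 0.18. Over all rows tested, r was 0.25 and rho 0.17. Among the members without Atp5s, r was 0.00 and rho 0.23. These coefficients are descriptions over genes that share the same 4 libraries.

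The promoters of these genes are shown because many nuclear respiratory genes are known to share sites for NRF1 and for ETS factors such as GABP. RefSeq windows of GRCr8, each 300 bases long, were found by gene ID for 61 of the 72 members. They ran from 250 bases before to 50 bases after the annotated gene start in 40 of the 61 and in 69.3% of all windows, and lay elsewhere relative to that start in the rest. Searched on both strands, 5 motifs were counted, and none contains another. All but the NRF1 motif are named by their letters. CCGGAAG, the ETS motif, was in 20 of the 61 windows (32.8%) and in 9.22% of all 27457 windows. The NRF1 motif, in which 1 position could be any base, was in 12 (19.7%) against 4.71%. AAGATGGC, a YY1 motif, was in 13 (21.3%) against 3.44%, and TCAAGGTCA, an estrogen-related receptor motif, in 2 (3.28%) against 0.412%. TATAAA was in 2 (3.28%) against 14.3%. The windows below belong to the members with the highest mean difference in complex IV (Cox4i1) and complex II (Sdha) and the lowest in complex III (Uqcrq), with ETS and NRF1 matches in capitals.
Cox4i1, chr19:65630133-65630432, plus strand: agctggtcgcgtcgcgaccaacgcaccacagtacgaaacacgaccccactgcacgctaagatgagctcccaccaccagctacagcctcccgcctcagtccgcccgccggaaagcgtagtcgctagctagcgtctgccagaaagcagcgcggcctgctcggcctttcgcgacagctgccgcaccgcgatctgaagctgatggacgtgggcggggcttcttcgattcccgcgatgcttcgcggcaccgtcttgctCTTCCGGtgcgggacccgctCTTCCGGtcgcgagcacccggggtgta
Sdha, chr1:30764303-30764602, plus strand: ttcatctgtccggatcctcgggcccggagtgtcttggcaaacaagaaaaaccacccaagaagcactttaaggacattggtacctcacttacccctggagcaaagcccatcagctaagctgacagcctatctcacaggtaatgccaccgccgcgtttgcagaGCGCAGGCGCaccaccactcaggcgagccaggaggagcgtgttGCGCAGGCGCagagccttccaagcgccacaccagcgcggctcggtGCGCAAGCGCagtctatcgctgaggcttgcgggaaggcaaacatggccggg
Uqcrq, chr10:38089929-38090228, minus strand: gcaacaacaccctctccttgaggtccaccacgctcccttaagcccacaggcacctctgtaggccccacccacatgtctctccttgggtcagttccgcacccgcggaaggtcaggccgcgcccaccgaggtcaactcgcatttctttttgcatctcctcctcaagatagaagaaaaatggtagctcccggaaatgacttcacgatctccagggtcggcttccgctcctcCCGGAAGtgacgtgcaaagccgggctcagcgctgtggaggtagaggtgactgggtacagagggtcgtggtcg
A match is a description of letters. The Cox4i1 window holds 2 ETS matches and shares 247 bases with the window of its neighbour Cox4nb, on the opposite strand, so both genes have the same 2 matches. The Sdha window holds 3 NRF1 matches and the Uqcrq window 1 ETS match. Other members with the highest or lowest mean difference of a complex mostly lacked both motifs. The windows of Ndufs4, Ndufb6, Sdhc, Uqcrfs1, Cox6b2 and Atp5s held neither, and that of Atp5g2 held 1 NRF1 match. The Cox4i1 and Sdha windows begin 250 bases before the annotated gene start, whereas the Uqcrq window begins 3643 bases after it.

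Complex I, the NADH dehydrogenase, had 31 members, with a median difference of 0.12 in rat 1 and -0.23 in rat 2. In both rats 9 were higher and 10 lower. Among the 7 core genes, which encode the subunits that carry electrons from NADH to coenzyme Q, 3 were higher in both rats and Ndufs8 was lower in both. Ndufv1, whose product binds NADH and flavin, stood at 0.04 and 0.58 in SFZ rat 1 and rat 2 and at -0.14 and -0.04 in deep AC rat 1 and rat 2. Its partner Ndufv2 stood at 0.12 and 0.39 in SFZ and -0.23 and -0.12 in deep AC. For Ndufv1 and Ndufv2 both SFZ libraries were above both deep AC libraries, with mean differences of 0.40 ± 0.31 for Ndufv1 and 0.44 ± 0.11 for Ndufv2 (SD, n = 2 rats; limma adjusted p = 0.80 and 0.78). Ndufs7, another core iron-sulfur subunit, had its highest and its lowest value in SFZ, at 1.13 in SFZ rat 1 and -0.84 in SFZ rat 2, with -0.34 and 0.34 in deep AC.

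The 24 other complex I members, assigned by symbol, include Ndufa4, and the rest encode supernumerary subunits, which surround the core. Of the 24, 6 were higher and 9 lower in both rats. Ndufs4, a subunit near the NADH-binding end whose loss causes Leigh syndrome in people, had the highest mean difference of all members. It stood at 0.13 and 1.74 in SFZ and at -0.17 and -0.13 in deep AC. Both SFZ libraries were above both deep AC libraries, but rat 2 made most of the mean difference of 1.08 ± 1.11 (SD, n = 2 rats; SE 0.59; limma adjusted p = 0.64). The annotated span of Ndufs4 (chromosome 2, 45839236 to 46479619, minus strand) also holds Pelo on the same strand, whose differences were 1.08 in rat 1 and -1.44 in rat 2. Ndufb9 stood at 0.33 and 0.67 in SFZ and -0.33 and -0.50 in deep AC, a mean difference of 0.91 ± 0.36 (SE 0.36; limma adjusted p = 0.52). The 2 zones did not overlap, and the rats were closer together than for Ndufs4.

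Ndufb6, a subunit of the membrane arm, had the lowest mean difference of complex I. It stood at -0.16 and -1.40 in SFZ and at 0.16 and 0.58 in deep AC, a mean of -1.15 ± 1.17 (SE 0.60; limma adjusted p = 0.62). Both SFZ libraries were below both deep AC libraries, and SFZ rat 2 was the lowest by far. Ndufb8, another membrane arm subunit, had the most similar differences of all members, -0.51 in both rats, from -0.39 and -0.12 in SFZ against 0.12 and 0.38 in deep AC. Ndufa12 stood at -3.02 in SFZ rat 1 and 1.60 in SFZ rat 2, with -0.04 and 0.04 in deep AC, so the zones were ordered differently in the 2 rats. Ndufa4, first described as a complex I subunit and now placed in complex IV, stood at -0.16 and -0.26 in SFZ and 0.34 and 0.16 in deep AC, lower in both rats by similar amounts (-0.49 and -0.42). The other supernumerary members lower in both rats were Ndufa1, Ndufa2, Ndufa8, Ndufb2, Ndufb10 and Ndufb11, with mean differences from -0.59 to -0.25. Ndufa5, Ndufb3, Ndufb4 and Ndufb5 were higher in both rats, with mean differences from 0.11 to 0.72. Ndufv3 was at least 2-fold higher in rat 1 and differed by -0.41 in rat 2.

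**Figure D2:**
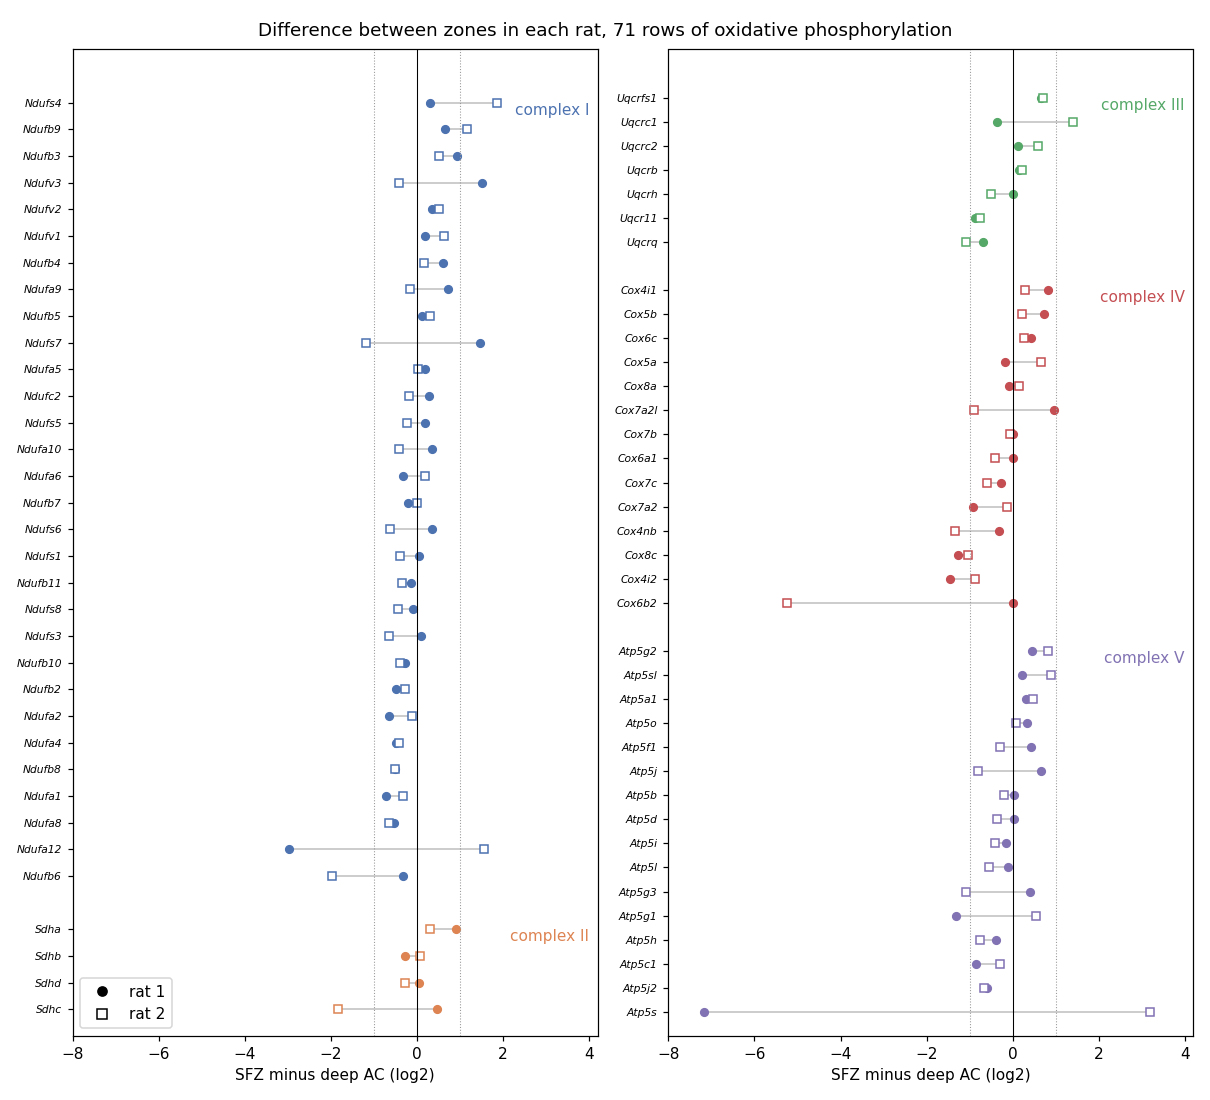
Difference between zones (SFZ minus deep AC, log2, x axis) for 71 of the 72 members, with rat 1 as filled circles and rat 2 as open squares, ordered by mean difference within each complex. Dotted lines mark 2-fold. Most pairs lie between them, and the long lines of Atp5s, Ndufa12 and Cox6b2 are cases where the rats differ most.

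Complex II, succinate dehydrogenase, links the chain to the TCA cycle and has 4 subunits, all of them members. Sdha, the flavoprotein that oxidizes succinate, stood at 0.27 and 0.15 in SFZ and at -0.64 and -0.15 in deep AC. Both SFZ libraries lay above both deep AC libraries, with a mean difference of 0.61 ± 0.44 (SD, n = 2 rats; SE 0.45; limma adjusted p = 0.72). Sdhc, a membrane anchor, stood at 0.32 and -1.68 in SFZ and -0.16 and 0.16 in deep AC, so the 2 SFZ libraries lay on opposite sides of deep AC. Sdhd, the other anchor, stood at 0.02 and -0.14 in SFZ and -0.02 and 0.14 in deep AC. Sdhb, the iron-sulfur subunit, differed by -0.28 in rat 1 and 0.08 in rat 2. None of Sdhb, Sdhc and Sdhd had the same direction in both rats.

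Complex III, cytochrome bc1, had 7 members with medians of 0.00 in rat 1 and 0.22 in rat 2. Uqcrfs1, the Rieske iron-sulfur protein, stood at 0.28 and 0.43 in SFZ and at -0.37 and -0.28 in deep AC. Its differences of 0.65 and 0.71 were the closest pair of the complex, with a mean of 0.68 ± 0.05 (SD, n = 2 rats; SE 0.40; limma adjusted p = 0.67). Uqcrb was also higher in both rats, at 0.14 and 0.22, and so was Uqcrc2, a core protein of the matrix side, at 0.12 and 0.60. Uqcrq and Uqcr11, small supernumerary subunits, went the other way. Uqcrq stood at -0.34 and -0.75 in SFZ and at 0.35 and 0.34 in deep AC, a mean difference of -0.89 ± 0.29 (SE 0.42; limma adjusted p = 0.58). Uqcr11 stood at -0.53 and -0.35 in SFZ and 0.35 and 0.41 in deep AC, a mean of -0.82 ± 0.09 (SE 0.43; limma adjusted p = 0.62). For both genes the SFZ libraries were below the deep AC libraries. Uqcrc1 stood at -0.36 in rat 1 and 1.41 in rat 2, while Uqcrh, the hinge protein, differed by under 0.01 in rat 1 and by -0.50 in rat 2.

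Complex IV, cytochrome c oxidase, reduces oxygen, and several of its nuclear subunits come as tissue isoforms. The isoform pair of subunit 4 went in opposite directions. Cox4i1, the ubiquitous isoform (chromosome 19, 51023960 to 51030200, plus strand), stood at 0.24 and 0.15 in SFZ and at -0.59 and -0.15 in deep AC. Cox4i2, an isoform known from lung and from cells at low oxygen (chromosome 3, 143103348 to 143114236, plus strand), stood at -0.83 and -0.44 in SFZ and at 0.63 and 0.44 in deep AC. The SFZ libraries were all above the deep AC libraries for Cox4i1 and all below them for Cox4i2. The mean difference was 0.56 ± 0.37 for Cox4i1 (SE 0.37; limma adjusted p = 0.69) and -1.16 ± 0.41 for Cox4i2 (SD, n = 2 rats each; SE 0.37; limma adjusted p = 0.49, the lowest of the members). The difference between the 2 isoforms was not tested. Cox4nb, which is transcribed away from Cox4i1 out of the shared window, stood at -0.16 and -0.49 in SFZ and 0.16 and 0.85 in deep AC, lower in both rats.

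Cox8c, known as a testis isoform (chromosome 6, 127161354 to 127162677, plus strand), stood at -0.32 and -0.70 in SFZ and at 0.95 and 0.32 in deep AC, a mean difference of -1.15 ± 0.18 (SE 0.43; limma adjusted p = 0.50). Both SFZ libraries were below both deep AC libraries. No whole reads with a sum up to 20000 matched the differences of Cox8c, so its level was known only as a bound. The ubiquitous Cox8a stood at -0.06 and 0.12 in SFZ and at 0.03 and -0.03 in deep AC, with no order between the zones. Cox6b2, another testis isoform, had 41 reads in deep AC rat 2. The other 3 libraries were at the floor, meaning 0 reads in the SFZ libraries and at most 1 read in the deep AC library. Its difference therefore rests on a single library. The muscle isoforms Cox6a2 and Cox8b were listed at 0 in all 4 libraries.

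The remaining ubiquitous complex IV genes differed by less than 2-fold in both rats. Cox6c and Cox5b were higher in both, at 0.42 and 0.25 and at 0.72 and 0.21. Cox7c was lower in both, at -0.26 and -0.60. Cox7a2 was also lower in both, with -0.90 and -0.03 in SFZ and 0.03 and 0.10 in deep AC. Its span overlaps the row LOC100363289 on the opposite strand. Cox7b stood at -0.05 and 0.05 in SFZ and -0.06 and 0.11 in deep AC, the closest pair of rats in the complex. Cox6a1 stood at 0.14 and -0.53 in SFZ and 0.13 and -0.13 in deep AC. Cox5a and Cox7a2l, of which Cox7a2l is known for its part in supercomplexes, had a different sign in each rat, at -0.17 and 0.66 and at 0.96 and -0.90.

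**Figure D3:**
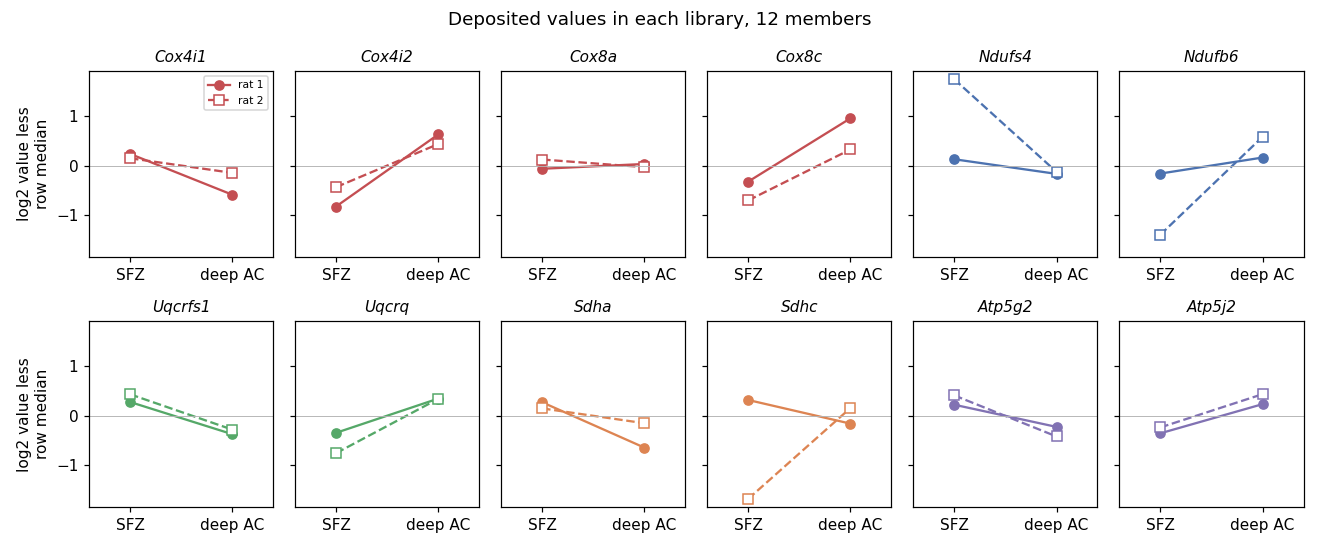
Deposited log2 values less the row median (y axis) in SFZ and deep AC for 12 members, with rat 1 as filled circles and solid lines and rat 2 as open squares and dashed lines. The lines of Cox4i1 fall from SFZ to deep AC and those of Cox4i2 rise in both rats, those of Cox8a are nearly flat, and those of Sdhc cross.

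Complex V, the ATP synthase, had 16 members with medians of 0.03 in rat 1 and -0.29 in rat 2. The catalytic F1 part was represented by 4 genes, all under 2-fold apart in both rats. Atp5b, the catalytic beta subunit, stood at 0.01 and -0.01 in SFZ and at -0.03 and 0.20 in deep AC. Atp5a1, the alpha subunit, stood at 0.09 and 0.39 in SFZ and -0.23 and -0.09 in deep AC, a mean difference of 0.40 ± 0.11 (SD, n = 2 rats; SE 0.43; limma adjusted p = 0.80), with no overlap between the zones. Atp5c1, the gamma subunit of the central stalk, was lower in both rats at -0.86 and -0.29, and Atp5d, the delta subunit, stood at 0.02 and -0.37.

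Outside F1, the 3 genes of subunit c, which encode the same mature protein of the rotor ring, had different patterns. Atp5g2 stood at 0.22 and 0.41 in SFZ and at -0.22 and -0.42 in deep AC, a mean difference of 0.64 ± 0.27 (SE 0.44; limma adjusted p = 0.70) with no overlap. Atp5g1 differed by -1.32 in rat 1 and 0.53 in rat 2. Atp5g3 differed by 0.40 in rat 1 and -1.09 in rat 2. Atp5j2, the f subunit, had the lowest mean difference among the subunits of the complex. It stood at -0.35 and -0.24 in SFZ and 0.24 and 0.44 in deep AC, a mean difference of -0.63 ± 0.06 (SE 0.43; limma adjusted p = 0.70). The e, g and d subunit genes Atp5i, Atp5l and Atp5h were lower in both rats as well, with mean differences of -0.29, -0.33 and -0.57. Atp5o, which encodes the oligomycin sensitivity protein of the outer stalk, was higher in both rats at 0.34 and 0.08. The stalk genes Atp5f1 and Atp5j had a different sign in each rat.

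Atp5s was the member that varied most. SFZ rat 1 held 0 reads and SFZ rat 2 held 296, while the deep AC libraries held 144 (rat 1) and 35 (rat 2). The SFZ libraries held both its lowest and its highest value. Atp5sl was higher in both rats at 0.21 and 0.90, with overlapping zones.

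The SFZ libraries accounted for more of the spread of the members than the deep AC libraries. The SD over members of rat 1 minus rat 2 was 1.35 in SFZ and 0.74 in deep AC, against 2.71 and 1.45 over all rows tested. Without Atp5s the SDs were 0.95 and 0.69. The library farthest from the gene's median was an SFZ library for 51 of 72 members (70.8%) and for 64.7% of all rows tested. Among rows averaging 1000 scaled reads or more this share was 58.5%. The lowest of the 4 libraries was SFZ rat 1 for 20 members (27.8%, against 34.1% of all rows), SFZ rat 2 for 28 (38.9%, against 28.0%), deep AC rat 1 for 17 (23.6%, against 17.5%) and deep AC rat 2 for 7 (9.72%, against 20.4%).

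Genes outside the rule that act with these complexes were described from lists, and 0 genes of these lists passed limma over all rows tested. At an unadjusted p under 0.05 were 2 assembly factors, 1 gene of the TCA list and 0 of the other lists. The shares of all rows tested at that p were 3.94% higher and 6.06% lower. By sign alone, 25.1% of all rows were higher and 28.9% lower in both rats. Among 11 tested electron carriers and other subunits, 2 were higher and 2 lower in both rats. Cycs, which encodes cytochrome c, stood at -0.45 and -0.47 and Cyc1, the cytochrome c1 subunit of complex III, at -0.07 and 0.40. Atpif1, the inhibitor of the ATP synthase, had the highest mean difference of that list, at 0.79 and 0.82. Dhodh had the lowest, at -0.31 and -6.07, and rested on rat 2.

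Of 22 tested assembly factors, 10 were higher and 3 lower in both rats, with medians of 0.43 and 0.15. Surf1, a complex IV assembly factor, stood at 1.44 and 1.12, the only gene of that list at least 2-fold higher in both rats (background 6.41%). Ndufaf1, of complex I assembly, was the only gene at least 2-fold lower in both (background 11.9%). It had 26 and 0 reads in the SFZ libraries and 56 and 65 in the deep AC libraries. Tmem70, of ATP synthase assembly, had the highest mean difference, at 5.05 and 0.12. Of 11 tested coenzyme Q synthesis genes, 4 were higher and 1 lower in both rats. Pdss2, of the side chain synthase, stood at 1.18 and 2.03, and Coq4 had the lowest mean at -0.96 and -0.73.

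Of 14 tested genes of the TCA cycle and pyruvate dehydrogenase, 5 were higher and 2 lower in both rats, with medians of 0.65 and 0.23. Cs, citrate synthase, stood at 3.55 and 2.29 (mean 2.92 ± 0.90; SE 1.30; limma adjusted p = 0.57). Idh3g, a subunit of isocitrate dehydrogenase, stood at 1.55 and 1.10. Cs and Idh3g were at least 2-fold higher in both rats (background 6.41%). Ogdh, of the oxoglutarate dehydrogenase complex, had the lowest mean, at -6.37 and -0.78. Among 6 tested regulators of mitochondrial biogenesis, Nrf1 had the highest mean, at 1.92 and 2.02 (SE 1.51; limma adjusted p = 0.72). Esrra had the lowest mean of the regulators, at -0.28 and -5.64. Gabpa, an ETS factor subunit, stood at 0.64 and -0.33. Ppargc1a and Ppargc1b were listed at 0 in all 4 libraries. Under 2-fold in both rats were 45.5% of the carriers, 36.4% of the assembly factors, 54.5% of the coenzyme Q genes, 42.9% of the TCA list and 16.7% of the regulators.

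**Figure D4:**
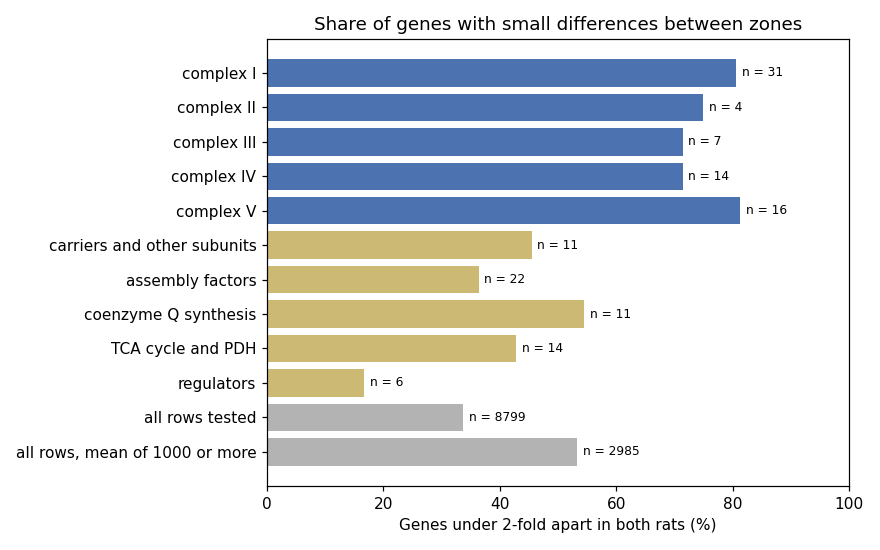
Percent of tested genes under 2-fold apart between zones in both rats (x axis, bars from 0), for the 5 complexes in blue, 5 lists of related genes in yellow and the background in grey, with the number of genes beside each bar. The complexes lie between 71.4% and 81.3%, all rows tested at 33.7% and rows averaging 1000 scaled reads or more at 53.2%. The groups are not matched by level.

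Of the 90 rows with a matching symbol, 18 were 0 in all 4 libraries and are not among the members. 8 of them are typed as pseudogenes, a row named Cox6b1 included. The others include the complex I genes Ndufa3, Ndufa7, Ndufa13 and Ndufc1. A listed 0 may mean no reads or no counting. Genes of this family have many processed pseudogenes, and the sources used here do not say how reads shared with near-identical copies were assigned, so such members are uncertain.

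Markers of the zones and of other cells were as follows. All 5 tested superficial zone markers were higher in both rats, among them Prg4 at 2.11 and 3.48, and all 9 tested chondrocyte markers were lower in both, among them Col2a1 at -2.51 and -2.60. Sox9 and Col9a3 were listed at 0. Of 13 skeletal muscle markers in the table, 7 were at 0, among them Acta1 and Mb, and 3 were tested. Tnni2 stood at -9.66 and -10.47. With the floor counted as 0, the other markers with known reads summed to 3.1 and 150.1 scaled reads in SFZ and to 78.2 and 0.0 in deep AC. Of 8 adipocyte markers 4 were at 0, Adipoq among them, and the rest summed to 367.0 and 1062.9 in SFZ against 311.8 and 171.6 in deep AC. Cidea made most of the SFZ sums, with 318 and 864 reads in SFZ. It had 2 reads in deep AC rat 1 and was at the floor, at most 1 read, in deep AC rat 2. Fabp4 was lower in both rats at -1.74 and -0.75, and Ucp1 and Plin1 had a different sign in each rat. The 9 macrophage markers summed to 3954.1 and 3009.6 in SFZ against 4711.5 and 2495.0 in deep AC, but single markers disagreed. Lyz2 was higher in both rats (3.53 and 0.43), while Ptprc (-2.03 and -1.02) and Mrc1 (-1.63 and -0.15) were lower in both. Cd68 (-5.08 and 1.81) and Cd14 (-0.09 and 0.93) differed in sign. C1qa and C1qb were above the floor only in SFZ rat 1, with 119 and 91 reads. Of 5 tested bone cell markers 3 were at least 2-fold lower in both rats, Ibsp at -8.75 and -10.27, Alpl at -7.76 and -9.36 and Dmp1 at -9.02 and -5.61. Col1a1 was higher in both at 7.16 and 2.27, and Phex differed in sign. Ctsk, the only tested osteoclast marker, stood at -0.52 and -2.17. Of 5 tested synovial fibroblast markers, Col15a1 (1.74 and 2.25), Pdgfra (0.53 and 1.53) and Col3a1 (0.37 and 0.26) were higher in both rats. Clic5 differed in sign (7.41 and -1.47), and Dpp4 was above the floor only in SFZ rat 2, with 93 reads. Thy1 and Cd34 were at 0. The endothelial marker Pecam1 stood at -0.94 and 0.16, with Cdh5, Emcn and Vwf at 0. The erythroid markers Hbb-b1 (-6.03 and 6.18) and Hba-a2 (-0.06 and 2.77) differed in sign. The part of other cells in the members' values was not tested.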

How the data were processed

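The table holds log2 values made by the authors, 1 per gene row and library; its title names TMM scaling. Per the submitters' processing notes the genome was rn4; aligner, counter and strand setting: not given in the sources used here. The deposited log2 values behaved as scaled reads set to at least 1, less the row's median. 1 read was worth 1.02 and 1.00 in SFZ rat 1 and 2 and 0.996 and 0.923 in deep AC rat 1 and 2. Levels came from the floor in 3375 rows and from whole reads matching all differences to 1e-06 (sum up to 20000) in 5371. In 1918 rows the level was a bound and in 125 it came from binary places. Of the members 2, 31 and 39 had a level from the floor, from whole reads and as a bound. Total depth is unknown, and reads from amplified RNA do not count molecules.

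The 8799 rows averaging 10 scaled reads or more were fitted with limma 3.58.1 in R 4.3.3 on zone and rat (eBayes with the level as trend, 1 residual degree of freedom; two-sided; Benjamini-Hochberg over all rows). The rat is a block because the titles tie both areas to an animal; the difference between rats in SFZ and in deep AC correlated at 0.05 over all rows and -0.25 over members. Nothing says that the libraries hold more than 1 capture each, so p-values cover the spread between these 4 libraries. The fit and the level search were run on simulated data. The simulated spread for the fit was not matched to these libraries, so that run does not show its error rate here. Members and lists were chosen with earlier results of these data known. Full values are given for members with a library at the floor, at least 2-fold apart in both rats, at the extremes of each complex or the closest pair of rats, and for isoforms; others were named as examples after their values were seen. The values of 1 member are not reported here, though it is in the counts and medians.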

Additional observations from a re-analysis of the deposited data

How the results depend on the processing

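No member passed limma under any of the 13 other settings tried, and the lowest adjusted p of a member was 0.246 to 0.690 in the settings that keep all 4 libraries. Leaving out a library drops the rat term: a lone library is set against the other zone's mean, the spread comes from that other zone, and the lone library is assumed to vary like it. In those fits the lowest adjusted p was 0.112 to 0.565. Calls over all rows rose to 15 with quantile normalization, to 5 with differences centred on the median row and to 5 with no replicate block, where 0 were members. Quantile normalization moved the median of all rows in rat 1 from -0.13 to 0.02 and put 2 members, Cox4i2 and Cox8c, at least 2-fold lower in both rats, while the members under 2-fold in both rats numbered 53. Members higher in both rats stayed between 18 and 21 and lower between 20 and 25 across the 3 scalings. Cox7b was 0.039 with centring, against -0.025. Leaving out each library in turn gave medians of -0.24 to -0.012 for all members, -0.26 to 0.05 for complex I, -0.18 to 0.14 for complex II, -0.14 to 0.19 for complex III, -0.26 to -0.0016 for complex IV and -0.26 to -0.04 for complex V. The mean difference then ran from -6.09 to 2.12 for Atp5s, -0.53 to 0.14 for Cox6a1, -0.11 to 0.055 for Cox7b, -0.065 to 0.12 for Cox8a, -3.02 to 1.60 for Ndufa12, -0.84 to 1.13 for Ndufs7 and -1.68 to 0.32 for Sdhc, each changing sign in at least 1 setting. Cox4i1 ran from 0.34 without deep AC rat 1 to 0.78, Sdha from 0.36 without deep AC rat 1 to 0.85, Cox7a2 from -0.96 without SFZ rat 2 to -0.09 without SFZ rat 1, Sdhd from -0.20 to -0.04 and Cox6b2 from -5.24 to 0.0. Ndufs4 ran from 0.28 without SFZ rat 2 to 1.89 without SFZ rat 1, and Ndufb6 from -1.77 without SFZ rat 1 to -0.53 without SFZ rat 2. Counts in both rats have no value without a library. The setting with bounds 2-fold higher and the one without Cox4nb, Atp5s and Atp5sl were chosen after seeing the data. The causes were not tested.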
